A study of Mus musculus with 35 samples.

Results

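The data described here are the libraries of OT-I cytotoxic T lymphocytes (CTLs) kept for 24 h at pH 6.6 or at pH 7.4 in the absence of IL-2. OT-I CTLs are mouse CD8+ T cells that carry a transgenic receptor for an ovalbumin peptide. The libraries were chosen by their titles, which give 5 replicates at each pH numbered 1 to 5, and they made up 10 of the 35 libraries of the series. Before the test, splenic CD8+ T cells were activated with antibodies against CD3 and CD28, expanded in IL-2, and then moved to low-glucose medium whose pH had been set with hydrochloric acid. Both groups therefore shared the transgenic receptor, the activation, the expansion in IL-2 and the later withdrawal of IL-2. Dead cells were removed on Ficoll before RNA was extracted. The remaining libraries were 5 taken at 0 h, 5 kept at pH 7 without IL-2, and 15 kept at pH 7.4, pH 7 or pH 6.6 with IL-2 at 200 IU/mL, 5 each. The comparison asks what acid does to CTLs that receive no cytokine, where the pH 7.4 cells are themselves deprived of growth factor.

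Activated CD8+ T cells depend on IL-2 and related cytokines. When these are withdrawn, the cells leave the cell cycle, lower growth and biosynthesis, raise the IL-7 receptor and, if nothing replaces the cytokine, die through BIM and related BH3-only proteins. Acid reaches T cells in tumors and inflamed tissue, where it can act on proton-sensing G protein-coupled receptors that signal through cAMP, and it lowers the pH inside the cell.

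The unit of measurement was the read count per gene, and levels are given as CPM, the counts scaled to library size by TMM (a trimmed mean that sets libraries on a common scale). The total count on genes was 21982865 to 28681772 at pH 7.4 and 22257963 to 33054825 at pH 6.6. At least 1 read was found for 17298 to 18527 genes at pH 7.4 and for 16630 to 17758 at pH 6.6. The first principal component held 68.5% of the variance and separated the groups with no overlap, from -52.2 to -49.9 at pH 7.4 and from 38.6 to 59.9 at pH 6.6. Summed levels of 10 CD8 T cell markers were 5945 to 7182 CPM at pH 7.4 and 6030 to 7326 CPM at pH 6.6. Defining markers of other lineages were at or near 0 in every library (Ms4a1 and Cd79a of B cells, Lyz2 and Csf1r of macrophages, Pf4 of platelets, and neutrophil and erythroid markers summing to at most 0.450 and 0.0968 CPM). The 9 B cell markers summed to 266.6 to 741.3 CPM at pH 7.4 and 262.6 to 513.4 CPM at pH 6.6, nearly all of it Ighm. Single members of other lists were expressed and moved with pH. Itga2b, an integrin chain, rose, and the 4 platelet markers summed to 5.63 to 7.87 CPM at pH 7.4 and 12.9 to 23.6 CPM at pH 6.6. Zbtb46, in the dendritic cell list, rose by 3.44 on the log2 scale, and the 6 markers of that list summed to 15.9 to 27.4 CPM and then 28.3 to 37.3 CPM, while its members Itgax (-1.25) and Flt3 (-3.06) fell. In the macrophage list Cd68 rose by 0.89 and Itgam fell by 1.63 on the log2 scale, and the 11 markers summed to 10.9 to 20.6 CPM and then 17.8 to 33.7 CPM. The 4 NK cell markers summed to 168 to 185 CPM and then 122 to 136 CPM, with Klrb1c at -1.62, and the 5 markers of fibroblasts and endothelium to 83.9 to 118 CPM and then 39.0 to 49.5 CPM, nearly all of it Pecam1 (-1.13). The 3 markers of CD4 and regulatory T cells summed to 25.7 to 38.3 CPM and then 17.45 to 31.45 CPM, and Foxp3 among them fell from a mean of 0.633 to 0.0570 CPM. The part of other cells in the results was not tested. Reads that aligned to several places, which were not counted, made up 32.8 to 37.1% of reads at pH 7.4 and 36.7 to 39.5% at pH 6.6, and the part of this difference in the results was not tested. In bulk RNA such as this, a smaller share of cells that make a transcript and less transcript per cell cannot be told apart.

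Most of the measured transcriptome differed between the groups. Of 13819 genes tested, 4367 (31.6%) were called higher at pH 6.6 and 4891 (35.4%) were called lower, by edgeR's quasi-likelihood test at a Benjamini-Hochberg adjusted p below 0.05. This was 67.0% of the genes tested, and for 6546 genes (47.4%) the 5 values of one group did not overlap the 5 of the other. The median absolute log2 fold change of the called genes was 0.67. Among changes of 1 or more on the log2 scale, the falls outnumbered the rises, with 963 genes higher and 1866 lower. The balance of rises and falls rested on the scaling. With library totals in place of TMM factors, 3212 genes were called higher and 6048 lower, and the median over all genes moved from -0.03 to -0.19. With RLE size factors the rises were the more numerous, with 4694 higher and 4580 lower, and DESeq2 called 4721 higher and 4599 lower. The p-values measure the spread between biological replicates as the study labelled them. Because so many genes were called, each list of genes below is read against 31.6% higher, 35.4% lower and a median of -0.03.

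**Figure D1:**
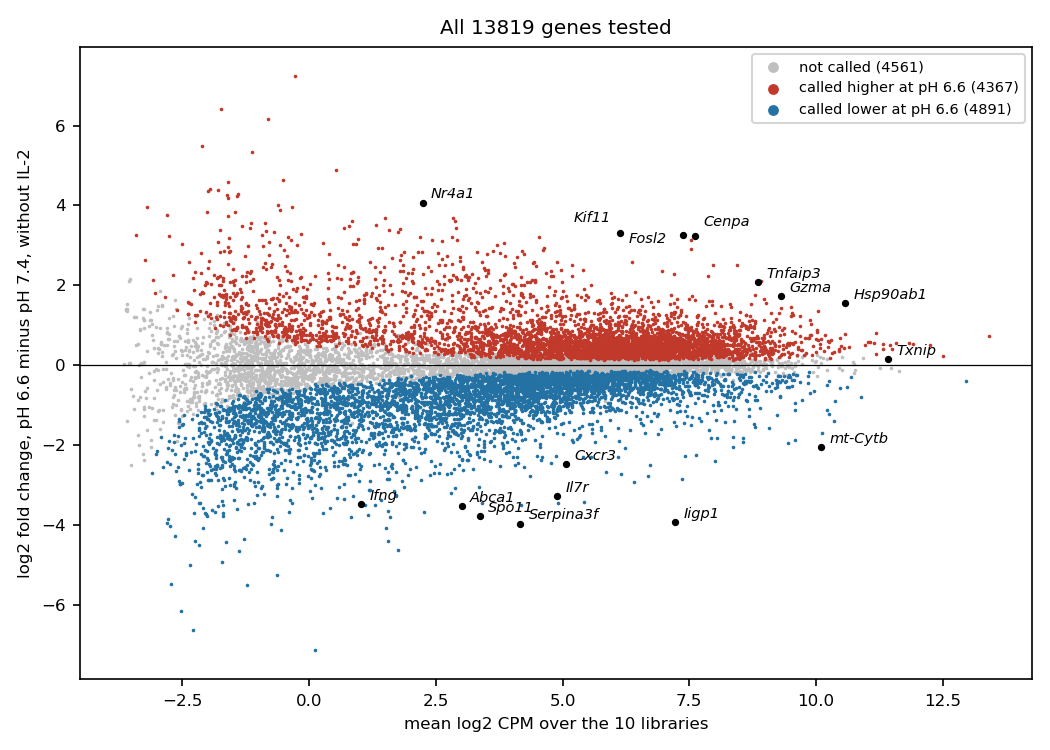
Log2 fold change of each gene without IL-2, as pH 6.6 over pH 7.4 (vertical axis, positive values higher at pH 6.6) against its mean log2 CPM over the 10 libraries (horizontal axis). Each point is 1 of 13819 genes, colored by its call. The 4367 rises and 4891 falls cover the whole range of levels, and most named genes stand above or below the main cloud. Txnip, which was not called, lies within it.

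Kinesins, spindle checkpoint kinases, cyclins and condensins of G2 and mitosis formed the list with the largest rise of the 52 lists examined. Of its 86 members, 84 rose and 0 fell, the median was 2.03, and the median within single replicate pairs ran from 1.77 to 2.30. The groups did not overlap for 82 members. Kif11, the kinesin that pushes spindle poles apart, had the largest rise of all genes whose log2 CPM averaged 3 or more. Its level was 25.2, 30.8, 29.9, 17.5 and 12.7 CPM in replicates 1 to 5 at pH 7.4 and 188, 308, 336, 158 and 176 CPM at pH 6.6. Every acid value was far above every neutral value, and the log2 fold change was 3.32 (SE 0.20, adjusted p = 5.2e-15). The gene lies at chr19:37376403-37421859 on the plus strand (GRCm38) and codes for a protein.

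Mki67, which encodes the proliferation antigen Ki-67, was at 106, 133, 143, 77.7 and 64.4 CPM at pH 7.4 and at 318, 429, 423, 235 and 248 CPM at pH 6.6. The groups did not overlap, with a log2 fold change of 1.67 (SE 0.19, adjusted p = 3.8e-09). Replicates 4 and 5 were the lowest at both pH values. Cdk1, the kinase that drives entry into mitosis, rose from 4.19 to 8.98 CPM at pH 7.4 to 24.3 to 42.2 CPM at pH 6.6, by 2.25 on the log2 scale. Cenpa, the histone H3 variant of centromeres, rose by 3.23, Anln (anillin, of the cytokinetic ring) by 3.07, and Bub1 (a spindle checkpoint kinase) by 3.0. Spag5, a spindle protein, rose by 2.93. Ccnb1, or cyclin B1, rose by 1.71, and 76.6% of its 50-base windows are found in no other gene, so that its count is less certain. The 2 members that were not called were Pttg1 (log2 fold change 0.16) and Cdc25b (0.25).

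The promoters of this list are printed because G2/M genes are known to share short promoter elements. The RefSeq table used here (GRCm38.p6) held a promoter for 70 of the 86 genes. The cell cycle genes homology region (CHR), searched as TTTGAA and its reverse complement TTCAAA, was present in 47 of these 70 genes (67.1%) and in 1440 of the 9976 tested genes with a promoter (14.4%). The windows searched covered 250 bases before to 50 bases after each start. The CCAAT box, searched as CCAAT and ATTGG, was present in 46 of 70 genes (65.7%) against 42.8% of all tested genes. The lines below give the 250 bases before the start of 3 members in the direction of transcription, with the CHR in capitals, for Kif11 at chr19:37376132-37376381 (plus strand), Cdk1 at chr10:69352913-69353162 (minus strand) and Mki67 at chr7:135716380-135716629 (minus strand).
Kif11: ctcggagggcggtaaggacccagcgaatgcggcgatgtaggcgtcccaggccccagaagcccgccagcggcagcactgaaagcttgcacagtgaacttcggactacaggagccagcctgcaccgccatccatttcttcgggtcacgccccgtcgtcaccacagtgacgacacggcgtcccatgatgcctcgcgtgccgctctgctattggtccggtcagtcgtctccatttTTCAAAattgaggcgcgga
Cdk1: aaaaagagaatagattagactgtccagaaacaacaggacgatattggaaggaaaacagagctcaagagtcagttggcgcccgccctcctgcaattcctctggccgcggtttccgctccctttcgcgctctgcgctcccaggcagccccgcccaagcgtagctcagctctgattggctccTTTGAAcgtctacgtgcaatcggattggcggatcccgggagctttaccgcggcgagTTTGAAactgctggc
Mki67: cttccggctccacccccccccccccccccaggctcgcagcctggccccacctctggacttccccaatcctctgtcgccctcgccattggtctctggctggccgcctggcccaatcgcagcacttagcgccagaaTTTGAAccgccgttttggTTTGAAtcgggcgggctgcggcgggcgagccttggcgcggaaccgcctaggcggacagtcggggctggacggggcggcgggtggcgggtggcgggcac
The Kif11 element begins 19 bases before the start, the Cdk1 elements 71 and 15 bases before it, and the Mki67 elements 116 and 98 bases before it. A match of letters is a description of the sequence and not a site of binding.

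Genes of DNA replication had a smaller median than those of mitosis, and the difference between the lists was not tested. Of 63 members, 53 rose and 2 fell, with a median of 0.82. Cdc6, which loads the replicative helicase, rose by 2.94, Clspn (claspin, of the replication checkpoint) by 2.85, and Uhrf1, which copies DNA methylation, by 2.70. Clspn was at 5.53, 3.53, 4.70, 2.80 and 2.44 CPM at pH 7.4 and at 23.7, 38.0, 41.3, 19.3 and 18.6 CPM at pH 6.6, with no overlap. Mcm5, a helicase subunit, rose by 1.43. Brca1, a repair gene, went from 8.30, 9.82, 10.2, 8.68 and 8.18 CPM to 51.4, 94.7, 97.8, 48.3 and 55.1 CPM, a log2 fold change of 2.89 (SE 0.13). The members that fell were Tyms, the thymidylate synthase (-0.52), and Gins4, of the replicative helicase (-0.21). Of the 63 replication-dependent histone genes, whose transcripts lack a poly(A) tail and are therefore poorly captured by this library type, only 19 could be tested, and 3 rose and 4 fell.

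The rise in mitotic transcripts went with a rise in a cell cycle inhibitor. Cdkn1a, encoding p21, was at 94.8, 120, 110, 190 and 199 CPM at pH 7.4 and at 249, 428, 407, 550 and 524 CPM at pH 6.6. All acid values were above all neutral ones (log2 fold change 1.62, SE 0.14, adjusted p = 1.6e-11). Cdkn1b, encoding p27, was at 498 to 665 CPM and 490 to 704 CPM, and its log2 fold change of 0.14 did not pass the test (adjusted p = 0.48). Among the 18 tested G1 cyclins, kinases and inhibitors, 8 rose and 3 fell. Cdk2 (1.27), Ccnd1 or cyclin D1 (1.16) and Cdkn2c, encoding p18 (1.15), rose, and Ccnd2, or cyclin D2, fell by 0.44 on the log2 scale.

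The level of the mitotic list places the 2 groups among the others. Averaged over its 86 genes, log2 CPM was 5.12 ± 0.18 at 0 h, 3.39 ± 0.39 after 24 h at pH 7.4, 4.11 ± 0.49 at pH 7 and 5.33 ± 0.33 at pH 6.6 (SD, n = 5 each). With IL-2 it was 7.14 ± 0.11 at pH 7.4 and 5.55 ± 0.20 at pH 6.6. At pH 6.6 the mitotic list thus stood near its 0 h level, whereas at pH 7.4 without IL-2 it lay lowest of the 7 groups. The replication list was at 5.43 ± 0.18 at 0 h, 3.67 ± 0.06 at pH 7.4 and 4.65 ± 0.23 at pH 6.6, below its 0 h level at both pH values.

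**Figure D2:**
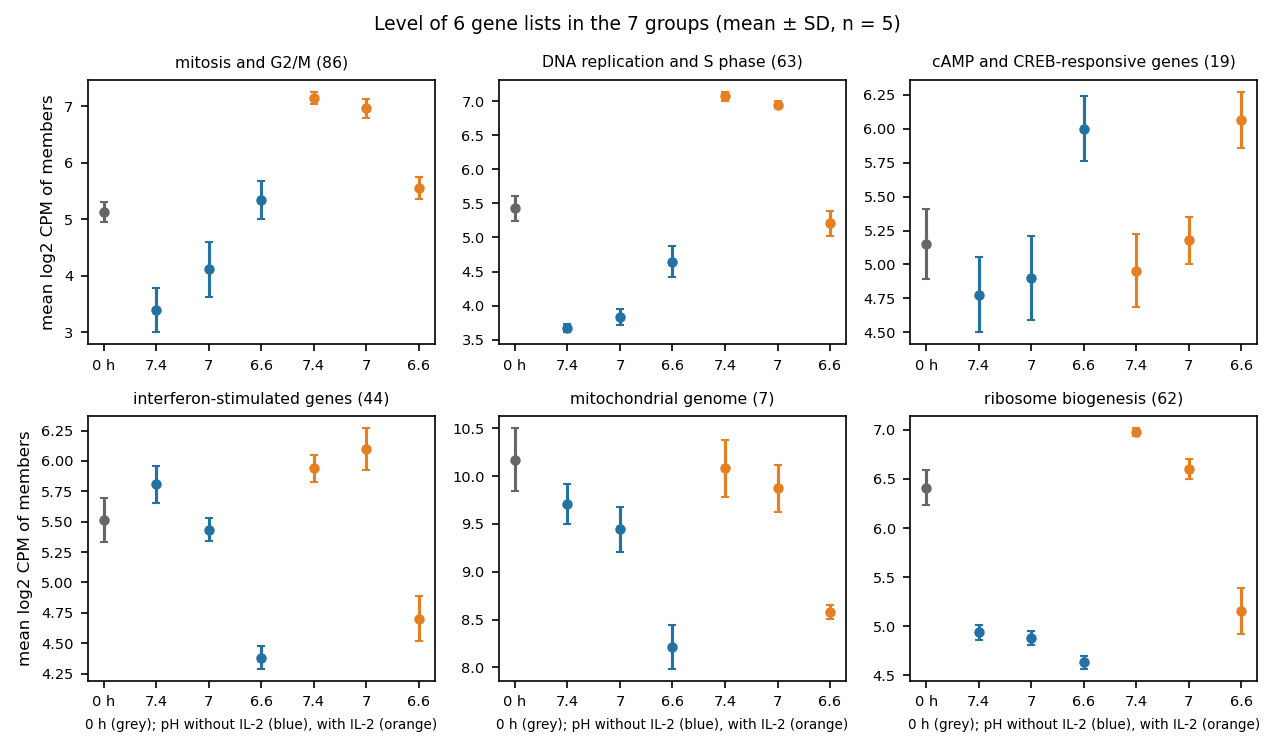
Mean log2 CPM over the tested members of 6 gene lists in the 7 groups. Points are means and bars the SD over 5 libraries, with 0 h in grey, cells without IL-2 in blue and cells with IL-2 in orange. Without IL-2 the mitotic list rose from 3.39 at pH 7.4 to 5.33 at pH 6.6, and the interferon-stimulated list fell from 5.81 to 4.38.

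Genes that respond to cAMP and CREB formed the list with the next largest median. Of 19 tested members, 15 rose and 1 fell, with a median of 1.05 and pair medians from 0.90 to 1.20. Fosl2, a member of the AP-1 family, was at 46.3, 56.2, 49.1, 55.6 and 59.5 CPM at pH 7.4 and at 395, 583, 547, 493 and 575 CPM at pH 6.6. The spread within each group was small beside the gap between them, and the log2 fold change was 3.27 (SE 0.10, adjusted p = 4.0e-22). Nr4a1, an orphan nuclear receptor induced by antigen and by cAMP, was at 1.42, 0.825, 0.932, 1.04 and 1.37 CPM at pH 7.4 and at 13.7, 23.6, 23.9, 17 and 18.5 CPM at pH 6.6. The groups did not overlap (log2 fold change 4.07, SE 0.28, adjusted p = 6.8e-14). Nr4a2 rose by 2.86 and Nr4a3 by 2.01. Crem, whose product both mediates and ends CREB responses, went from 29.4 to 37.3 CPM at pH 7.4 to 91.4 to 138 CPM at pH 6.6, and Sik1, a kinase that restrains CREB coactivators, rose by 2.32. Rgs16, which was the member that fell (-0.33), had overlapping groups and was not called without the replicate block.

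The core of the cAMP response element was searched in these promoters as TGACG and CGTCA. The RefSeq table held promoters for 14 of the 19 genes, and 11 of them (78.6%) held this core against 35.6% of the tested genes with a promoter. The full element TGACGTCA, which contains the core on both strands, was in 1 of 14 (7.14%) against 3.63%. The promoter of Nr4a1 is shown for its repeated elements, with the cores in capitals, over the 250 bases before its start at chr15:101266596-101266845 (plus strand).
Nr4a1: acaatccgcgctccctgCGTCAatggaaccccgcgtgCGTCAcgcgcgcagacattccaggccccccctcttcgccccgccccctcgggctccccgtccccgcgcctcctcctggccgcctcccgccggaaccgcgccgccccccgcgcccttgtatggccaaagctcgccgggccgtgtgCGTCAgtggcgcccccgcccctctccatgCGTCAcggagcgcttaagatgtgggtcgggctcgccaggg
Its 4 cores begin 233, 213, 69 and 40 bases before the start. The list was made of genes known to respond to cAMP and CREB, so these shares describe the list and not its response to acid. The matches are of letters only, and binding was not tested.

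The enzymes that make and break cAMP did not move one way. Among 21 phosphodiesterase, protein kinase A and adenylyl cyclase genes, 6 rose and 10 fell. Pde4b and Pde4d, cAMP phosphodiesterases, rose by 1.05 and 1.00. Pde7b (-2.31), Pde8a (-1.96) and the adenylyl cyclase Adcy3 (-1.38) fell. Adcy3 was at 25.1 to 34.3 CPM at pH 7.4 and at 10.6 to 11.8 CPM at pH 6.6. The exons of Adcy3 overlap those of another gene on the opposite strand over 22.1% of their length. Of 12 RGS proteins, which shorten G protein signals, 3 rose and 7 fell, among them Rgs1 (0.68) and Rgs8 (-1.94).

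Immediate early genes and the phosphatases that restrain MAP kinases were mostly higher in acid. Of 19 AP-1, EGR and related factors, 10 rose and 3 fell (median 0.51), and of 14 DUSP, Sprouty and SPRED genes, 8 rose and 1 fell (median 0.48). Atf3, a stress-induced factor, was at 0.254 to 0.728 CPM at pH 7.4 and at 3.30 to 7.42 CPM at pH 6.6, a log2 fold change of 3.44. Dusp4 rose from 1.02 to 2.61 CPM to 18.3 to 30.9 CPM, by 3.69, and Dusp16 rose by 2.11. Egr2 and Egr3, which follow antigen receptor signals, went the other way. Egr3 was at 1.26, 1.69, 1.65, 1.92 and 1.84 CPM at pH 7.4 and at 0.126, 0.261, 0.136, 0.164 and 0.141 CPM at pH 6.6 (log2 fold change -3.28), and Egr2 had a log2 fold change of -2.21. Nr4a1 and Egr3, both known targets of antigen receptor signaling, moved in opposite directions.

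Several NF-kB subunits and inhibitors rose. Of 18 genes, 10 rose and 1 fell, with a median of 0.33. Tnfaip3, which encodes the ubiquitin-editing inhibitor A20, was at 177, 227, 220, 242 and 260 CPM at pH 7.4 and at 844, 1100, 960, 885 and 974 CPM at pH 6.6. The groups were separated by a wide gap (log2 fold change 2.08, SE 0.15, adjusted p = 1.2e-13). Nfkbiz (1.71), Nfkbia (1.54) and Relb (1.06) rose, while Ikbkb, the activating kinase, fell by 0.60 on the log2 scale.

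**Figure D3:**
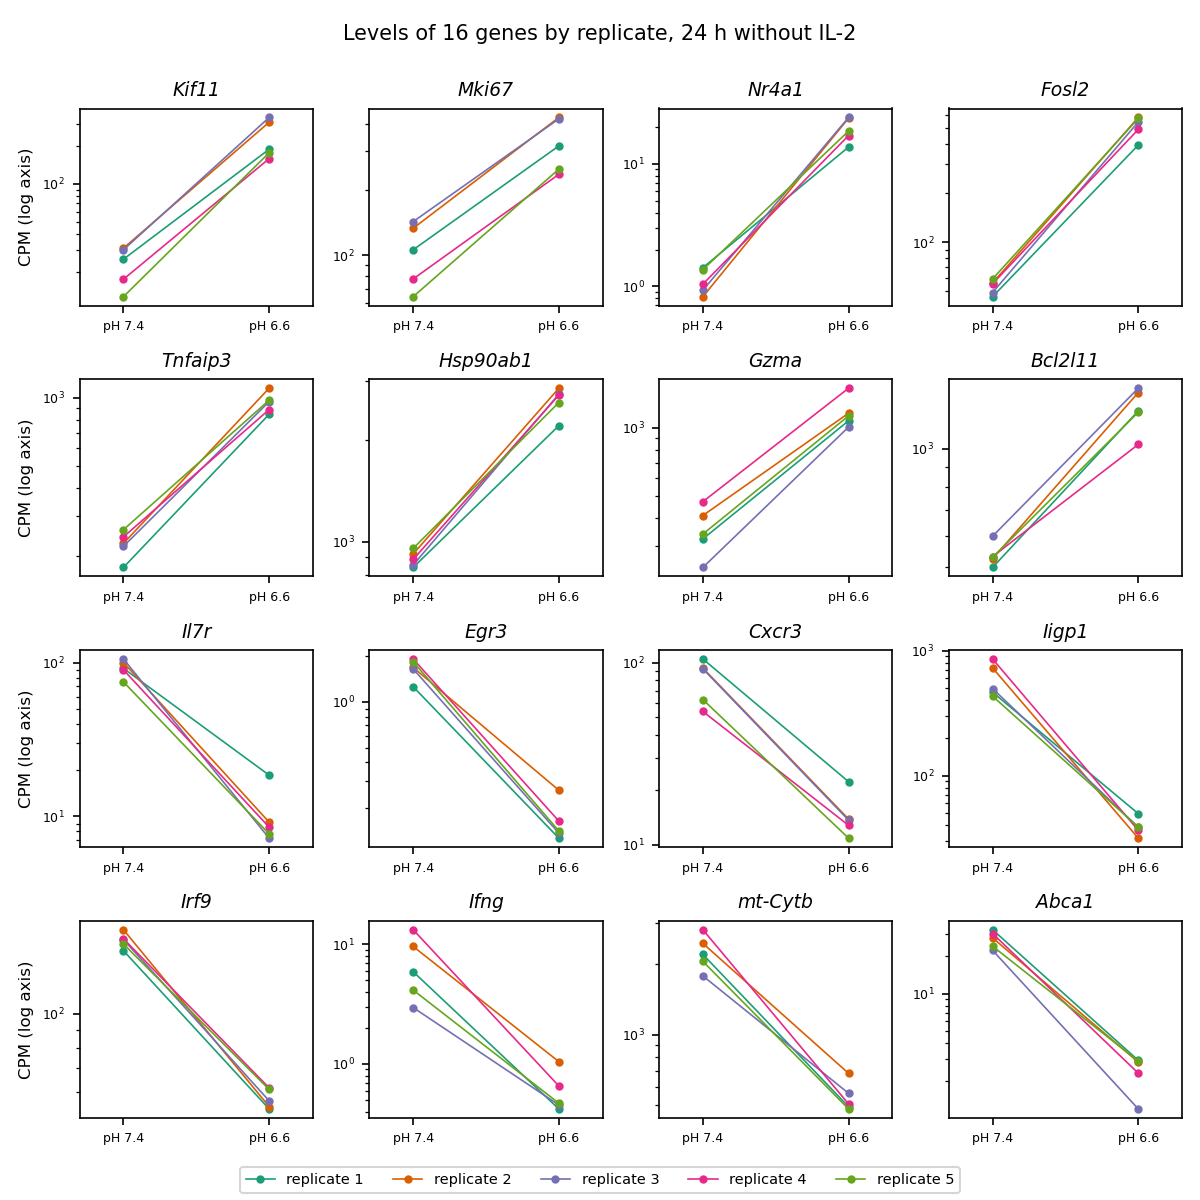
Levels in CPM (logarithmic vertical axes) of 16 genes at pH 7.4 and pH 6.6 without IL-2, with 1 line per replicate number. All 5 lines rise for Kif11, Mki67, Nr4a1, Fosl2, Tnfaip3, Hsp90ab1, Gzma and Bcl2l11, and all 5 fall for Il7r, Egr3, Cxcr3, Iigp1, Irf9, Ifng, mt-Cytb and Abca1.

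Of 22 targets of p53, 15 rose and 0 fell (median 0.63). Plk2, a kinase induced by DNA damage and stress, was at 3.17, 5.77, 5.08, 11.1 and 12.1 CPM at pH 7.4 and at 26.8, 45.3, 39.6, 56.5 and 62.9 CPM at pH 6.6, with no overlap (log2 fold change 2.71, SE 0.19). Perp rose by 2.32, Tnfrsf10b, a death receptor, by 1.00, and Mdm2, the ubiquitin ligase of p53, by 0.78.

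In the BCL2 family, inducers of death and a protector rose together. Bcl2l11, encoding the BH3-only protein BIM, was at 499, 525, 599, 532 and 529 CPM at pH 7.4 and at 1248, 1390, 1426, 1026 and 1239 CPM at pH 6.6. The lowest acid value was above the highest neutral one, and the log2 fold change was 1.23 (SE 0.12, adjusted p = 2.8e-10). Bbc3, encoding PUMA, rose by 1.02 and Pmaip1, encoding NOXA, by 0.96. Bcl2l1, encoding the protective BCL-XL, was at 14.4 to 18.3 CPM and then 33 to 53.2 CPM, a rise of 1.37. Bcl2 itself fell by 0.39 on the log2 scale with overlapping groups (205 to 272 CPM and 158 to 223 CPM), and Bid fell by 1.44. In all, 7 of 15 tested members rose and 3 fell. Dead cells were removed before extraction, so these values describe the cells that remained.

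Interferon-stimulated genes fell as a group. Of 44 genes, 0 rose and 39 fell, with a median of -1.33 and pair medians from -1.53 to -1.0, and the groups did not overlap for 35. Iigp1, an immunity-related GTPase that acts against intracellular microbes, was at 464, 727, 496, 857 and 432 CPM at pH 7.4 and at 49.6, 31.5, 38.6, 36.5 and 38.8 CPM at pH 6.6. Its highest acid value was below every neutral value, and its log2 fold change was -3.93 (SE 0.29, adjusted p = 2.4e-12). The antiviral genes Ifit1 (-3.66) and Ifit3 (-4.08) fell, as did Oasl2 (-3.36), and 48.8% of the windows of Ifit3 are unique. Irf9, a transcription factor that carries interferon signals, was at 151, 173, 163, 163 and 158 CPM and then at 53.6, 54.4, 56.5, 61.5 and 60.9 CPM (log2 fold change -1.50). Irf7 had a log2 fold change of -0.90.

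Among the 10 largest falls of genes whose log2 CPM averaged 3 or more, those known as interferon-induced GTPases or their relatives included Iigp1, Tgtp1 (-3.42), Gbp10 (-3.45) and Gm4951 (-3.49). Tgtp1 was at 116 to 188 CPM at pH 7.4 and at 10.9 to 15.6 CPM at pH 6.6. Tgtp1 and Gbp10 have near-identical relatives, since 18.8% and 15.9% of their 50-base windows are found in no other gene, and their counts are uncertain. Serpina3f, a serpin, had the largest fall of all genes whose log2 CPM averaged 3 or more, from 33.4, 114, 54.3, 112 and 65.9 CPM to 3.96, 3.63, 4.45, 5.40 and 6.20 CPM (log2 fold change -3.96, SE 0.38). Ifng, the gene for the interferon that CTLs secrete, fell too, from 5.91, 9.62, 2.96, 13.3 and 4.15 CPM to 0.421, 1.05, 0.454, 0.655 and 0.470 CPM. The log2 fold change of Ifng was -3.47 (SE 0.35, adjusted p = 5.3e-10), with the groups apart, and its annotated exons share 25.9% of their length with another gene on the same strand, with 80.1% of its windows unique. Whether the fall of Ifng and that of the interferon-stimulated genes were linked was not tested.

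Interferon response elements hold paired GAAA blocks, and these were searched as GAAANNGAAA and its reverse complement TTTCNNTTTC. They were present in the promoters of 18 of the 31 list members found in the RefSeq table (58.1%) and in 3.87% of all tested genes with a promoter. The lines below show the 250 bases before the start of Isg15, an interferon-induced ubiquitin-like protein, at chr4:156200819-156201068 (minus strand), and of Tgtp1 at chr11:48992247-48992496 (minus strand), with the paired blocks in capitals.
Isg15: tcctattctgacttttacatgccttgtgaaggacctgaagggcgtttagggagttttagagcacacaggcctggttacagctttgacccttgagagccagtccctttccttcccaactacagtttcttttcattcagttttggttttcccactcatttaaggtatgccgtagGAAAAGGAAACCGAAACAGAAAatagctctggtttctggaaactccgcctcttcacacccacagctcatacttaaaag
Tgtp1: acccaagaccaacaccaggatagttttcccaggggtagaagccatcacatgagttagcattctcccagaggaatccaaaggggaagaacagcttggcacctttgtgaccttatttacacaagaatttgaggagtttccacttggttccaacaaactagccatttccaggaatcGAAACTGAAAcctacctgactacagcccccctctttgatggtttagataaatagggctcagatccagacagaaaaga
Isg15 has 3 overlapping pairs that begin 78, 72 and 66 bases before the start, and its level was 1.96 to 3.61 CPM at pH 7.4 and 0.681 to 0.900 CPM at pH 6.6. The Tgtp1 pair begins 77 bases before the start. Here too the list was made of genes known to respond to interferon, so the share describes the list, and binding was not tested.

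Transcripts of secreted effector molecules fell, while those of the cytotoxic granule were mixed. Of 16 tested effector cytokines and chemokines, 2 rose and 11 fell (median -1.03, or -1.95 in a fit of only the 10 compared libraries, which tested fewer of them). Ccl1, a chemokine of activated T cells, was at 5.59, 15.4, 6.52, 16.4 and 6.72 CPM at pH 7.4 and at 0 to 0.164 CPM at pH 6.6 (log2 fold change -7.14, SE 0.58), the largest fall in the list. The size of this fall rests on a few reads at pH 6.6. Ccl3 (-3.33), Ccl4 (-2.90) and Xcl1 (-2.27), chemokines of CTLs, fell, as did Ccl5, from 141 to 228 CPM to 58.3 to 90.4 CPM. Csf1, a macrophage growth factor, had a log2 fold change of -1.97, and Tnf fell by 0.76 on the log2 scale with overlapping groups. The members that rose were Osm (0.70) and Csf2 (1.11). The 6 CTL markers summed to 1048 to 1393 CPM at pH 7.4 and 1764 to 2371 CPM at pH 6.6, but the higher sum came from Gzma, since Ccl5, Gzmb and Prf1 fell and Nkg7 (0.10) and Ctsw (-0.08) did not pass the test.

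Among 23 cytotoxic granule genes, 6 rose and 6 fell. Gzma, encoding the protease granzyme A, was at 322, 409, 241, 471 and 338 CPM at pH 7.4 and at 1075, 1162, 1009, 1499 and 1131 CPM at pH 6.6. All 5 acid values were above all neutral ones, with a log2 fold change of 1.74 (SE 0.12, adjusted p = 8.2e-14). Serpinb9, which protects the cell from its own granzyme B, rose by 1.67 and Gzmm by 1.48. Gzmb, encoding granzyme B, had overlapping groups, with 101, 135, 60.4, 202 and 123 CPM against 81.0, 90.2, 74.4, 114 and 72.7 CPM. Its log2 fold change was -0.46 (SE 0.17, adjusted p = 0.016), and it was lower in 4 of 5 pairs. Without replicate 4 or 5 (-0.35 and -0.39), or without the replicate block (-0.52), Gzmb was not called. Prf1, encoding the pore-forming perforin, also overlapped, at 16.5 to 41.0 CPM and 11.1 to 29.5 CPM (-0.71), and was not called without the replicate block. Gzme fell by 1.13, and 79.4% of its windows are found in no other gene. At 0 h, Gzmb was at 7958 CPM and Prf1 at 515 CPM, so both were low at either pH beside the starting cells.

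Surface receptors changed in both directions. Of 18 tested inhibitory receptors and related genes, 7 (38.9%) rose and 7 (38.9%) fell, near the 31.6% and 35.4% of all genes tested. Nt5e, encoding CD73, which makes adenosine, was at 270, 159, 172, 134 and 136 CPM at pH 7.4 and at 604, 486, 514, 355 and 416 CPM at pH 6.6 (log2 fold change 1.47, SE 0.10), with no overlap. Pdcd1, encoding PD-1, was at 9.63, 30.3, 22.1, 27.6 and 22.4 CPM and then 28.8, 55.0, 44.6, 74.2 and 51.7 CPM. Pdcd1 rose in 5 of 5 pairs by 1.22, although the groups overlapped. Tigit rose by 1.20. Cd160 (-1.87), Klrg1 (-3.28), a marker of terminal effectors, and Lair1 (-2.18) fell. Of 14 costimulatory receptors, 4 rose and 5 fell, with Tnfrsf9, encoding 4-1BB, higher by 0.84 and Slamf6 lower at -1.73. Of 29 listed genes of the T cell receptor complex and its proximal kinases, 8 rose and 12 fell, and the changes within the list were small. Cd8b1, the CD8 beta chain, had the largest fall of the list, from 358 to 414 CPM to 212 to 247 CPM (-0.73), and Cd6 the largest rise (0.82). The receptor beta chain genes Trbc1 and Trbc2 were outside this list. Trbc1 rose from a mean of 303.7 to 658.2 CPM (1.12), and Trbc2 rose by 0.27.

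Receptors for trafficking fell with the integrins. Of 23 tested integrins and chemokine receptors, 4 rose and 17 fell, with a median of -0.78. Cxcr3, the receptor that brings effector T cells to inflamed tissue, was at 105, 93.4, 92.6, 53.9 and 62.7 CPM at pH 7.4 and at 22.2, 13.8, 13.6, 12.8 and 10.9 CPM at pH 6.6. The groups were far apart (log2 fold change -2.47, SE 0.12, adjusted p = 8.5e-18). Cx3cr1 (-2.29), Ccr4 (-1.52) and the integrin chain Itgae (-1.17), which holds T cells in epithelia, fell. Ccr7, which directs cells to lymph nodes, rose from 101 to 176 CPM to 229 to 329 CPM (1.01), and Cxcr4 rose by 1.64 (SE 0.45).

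Genes of memory, quiescence and lymph node homing did not share 1 direction, with 5 of 23 higher and 8 lower. Il7r, the IL-7 receptor chain, which is raised on cells deprived of IL-2, was at 91.7, 100, 106, 89.8 and 74.9 CPM at pH 7.4 and at 18.6, 9.18, 7.22, 8.51 and 7.70 CPM at pH 6.6. The groups did not overlap, and the log2 fold change was -3.27 (SE 0.16, adjusted p = 1.6e-17). At 0 h its mean was 2.84 CPM, below every value of either group. Tcf7, encoding TCF-1, had a log2 fold change of -0.55 with overlapping groups (655 to 1066 CPM and 453 to 711 CPM), and Klf2 of -0.73, also overlapping. Zeb1 rose by 1.57 and Bcl6 by 0.66.

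Of 20 effector transcription factors, 7 rose and 6 fell. Bhlhe40, a repressor needed for effector cytokines, was at 145, 246, 180, 326 and 325 CPM at pH 7.4 and at 639, 1152, 971, 1201 and 1156 CPM at pH 6.6, with a log2 fold change of 2.10 (SE 0.13). Replicate 1 was the lowest in both groups. Ahr rose by 1.45 and Hif1a by 1.17. Ikzf3 (-1.22), Irf4 (-1.12), which follows antigen receptor strength, and Id2 (-0.81) fell.

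The chains of the IL-2 receptor moved apart. Il2ra, the high-affinity chain CD25, was at 216, 191, 176, 191 and 146 CPM at pH 7.4 and at 302, 318, 328, 244 and 255 CPM at pH 6.6, all higher (log2 fold change 0.65, SE 0.11). Il2rb, the signaling beta chain, was at 540, 652, 661, 661 and 725 CPM and then at 399, 455, 434, 485 and 498 CPM, all lower (-0.51, SE 0.10). Il2rg, the common gamma chain, was at 226 to 294 CPM and 242 to 308 CPM, and its log2 fold change of 0.04 did not pass the test (adjusted p = 0.61). Jak3 rose by 0.69. Of 18 STAT5 targets, 9 rose and 9 fell. Socs2 (1.43) and Cish (1.11), feedback genes of the pathway, and the kinase gene Pim1 (1.25) rose, while Socs1 fell by 0.88 on the log2 scale. Of 24 other cytokine receptor genes, 9 rose and 9 fell, and Il1rl1, the IL-33 receptor, rose by 2.01.

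Genes that sense or move protons changed in both directions. Of 11 listed names of proton sensors and channels, 10 matched a gene in the counts, and 6 could be tested. Gpr65, a proton-sensing receptor of lymphocytes coupled to cAMP, was at 28.6, 28.3, 27.7, 34.4 and 25.9 CPM at pH 7.4 and at 23.4, 20.1, 18.4, 18.7 and 19.7 CPM at pH 6.6. The groups were apart by a small margin (log2 fold change -0.53, SE 0.09, adjusted p = 5.6e-06), and 24.7% of its exon length overlaps a gene on the opposite strand. The proton channel Hvcn1 had a log2 fold change of -0.70 with overlapping groups. Gpr132 rose by 0.51, from 253 to 334 CPM to 370 to 451 CPM. Asic3, an acid-sensing ion channel, was low, at 0.254 to 0.646 CPM and 1.14 to 2.25 CPM.

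Of 26 acid-base transporters and carbonic anhydrases, 7 rose and 13 fell (median -0.16, or -0.34 under the stricter filter on low counts). The anion exchangers Slc26a6 (-2.13) and Slc26a11 (-1.34) and the carbonic anhydrase Car12 (-1.73) fell. Slc16a1, the lactate transporter MCT1, fell from 28.9 to 39.2 CPM to 12.2 to 18.3 CPM (-1.15), whereas Slc16a3, or MCT4, had a log2 fold change of 0.07 (adjusted p = 0.89). Slc4a11 rose by 1.34, from 5.25 to 8.18 CPM to 12.4 to 19.3 CPM.

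Lysosomal genes changed in both directions, and autophagy genes rose more often than they fell. Of 55 tested V-ATPase and lysosome genes, 11 rose and 26 fell (median -0.13). Atp6v1g2 (-1.80) and Cd63 (-1.55) fell, and Atp6v0e, a V-ATPase subunit, rose from 54.8 to 67.7 CPM to 121 to 139 CPM (1.08). Of 37 autophagy and TFEB family genes, 22 rose and 3 fell (median 0.24). Ulk1, the kinase that starts autophagy, was at 57.8, 62.1, 66.7, 57.4 and 67.3 CPM at pH 7.4 and at 121, 174, 171, 160 and 167 CPM at pH 6.6, with no overlap (1.35, SE 0.11). Wipi1 rose by 1.70 and Tfeb by 0.65, while Mitf had a log2 fold change of -2.35.

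Of the 12 tested genes of the MYC network, 7 rose and 3 fell (median 0.39), while ribosome biogenesis genes fell more often than they rose. Myc was at 17.2, 14.6, 14.7, 13.1 and 21.7 CPM at pH 7.4 and at 26, 28.2, 32.5, 20.8 and 23 CPM at pH 6.6. It was higher in 5 of 5 pairs (log2 fold change 0.69, SE 0.12, adjusted p = 6.4e-06), and the groups overlapped slightly. Mxi1, which opposes MYC, rose from 51.5 to 62.2 CPM to 153 to 203 CPM (1.71). At 0 h, Myc was at 234 CPM. Of 62 tested ribosome biogenesis genes, 10 rose and 34 fell, with a median of -0.32. Wdr12, of the PeBoW complex, fell by 1.61 on the log2 scale, and Polr1a, the large subunit of RNA polymerase I, by 0.92. Npm1 rose by 0.75, with 75.7% of its windows unique to it. Of 87 cytosolic ribosomal protein genes, 58 rose and 2 fell (median 0.46). Rps2 rose by 1.26, and 57.0% of its windows are unique, so that its counts are uncertain, as are those of other ribosomal genes with many processed copies.

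Nutrient sensing genes were balanced, and of the amino acid stress genes more rose than fell. Of 35 genes of mTORC1 and its sensors, 9 rose and 9 fell. Ddit4, encoding the mTORC1 inhibitor REDD1, was at 74.8, 52.7, 54.0, 71.1 and 107 CPM at pH 7.4 and at 126, 133, 130, 186 and 186 CPM at pH 6.6 (1.11, SE 0.19), with no overlap. Sesn2, which reports leucine to mTORC1, rose by 0.88, and Nprl3, of GATOR1, fell by 0.84 on the log2 scale. Of 19 PI3K and AKT genes, 8 rose and 4 fell, among them Pik3r1, a regulatory subunit of PI3K (0.62), and Inpp4b (-1.10). Of 32 ATF4 and integrated stress response genes, 15 rose and 4 fell (median 0.34). Slc3a2, the shared chain of several amino acid transporters, went from 96.8, 87.5, 75.2, 78.8 and 93.9 CPM to 271, 270, 278, 263 and 264 CPM (1.65, SE 0.09, adjusted p = 9.4e-16). Its acid values lay within a narrow band well above the neutral ones. Pycr1 (1.57), of proline synthesis, and Atf4 (0.89) rose.

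Of 20 aminoacyl-tRNA synthetases, 10 rose and 5 fell, from Wars (-0.57) to Rars (0.60). Of 22 amino acid transporters, 7 rose and 7 fell, and of 22 enzymes of glutamine, aspartate, proline and arginine, 10 rose and 4 fell. Gls2, a glutaminase known as a p53 target, was at 0.775 to 1.93 CPM and then at 11.3 to 15 CPM (3.21), and Asl, of arginine synthesis, had a log2 fold change of -0.54. Of 10 polyamine genes, 4 rose and 4 fell. Odc1, the first enzyme of polyamine synthesis, was at 95.9, 102, 89.9, 131 and 146 CPM at pH 7.4 and at 336, 356, 318, 360 and 365 CPM at pH 6.6 (1.63, SE 0.11), while Smox, which oxidizes spermine, rose by 2.08. Odc1 has 75.7% of its windows unique to it. Srm (-0.48) and Amd1 (-0.82), which make spermidine and its precursor, fell, with only 21.9% of the windows of Amd1 unique. Srm was not called with RLE size factors, under the looser filter on low counts, or without replicate 1, 3 or 5.

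Sterol synthesis and sterol export moved apart. Of 32 genes of cholesterol and fatty acid synthesis, 18 rose and 7 fell (median 0.38), and of 8 LXR targets and receptors, 2 rose and 6 fell (median -0.46). Insig1, which holds back sterol synthesis and is itself a target of the pathway, was at 11.5, 10.1, 12, 12.5 and 14.2 CPM at pH 7.4 and at 20.4, 34.1, 37.0, 29.3 and 34.7 CPM at pH 6.6 (1.33, SE 0.19). Its lowest acid value was above every neutral value. Hmgcs1, an early enzyme of cholesterol synthesis, rose from 64.2 to 72.3 CPM to 130 to 174 CPM (1.13). Abca1, the exporter of cholesterol, was at 32.6, 28, 22.3, 30.4 and 24.0 CPM and then at 2.90, 2.81, 1.18, 2.29 and 2.87 CPM, a log2 fold change of -3.53 (SE 0.18, adjusted p = 6.3e-17). At 0 h Abca1 was at 2.15 CPM, close to its level at pH 6.6. Acss2, which makes acetyl-CoA from acetate, fell by 0.95 on the log2 scale.

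Of 32 glycolytic and pentose phosphate genes, 11 (34.4%) were higher and 13 (40.6%) lower, near the 31.6% and 35.4% of all genes tested. Slc2a1, encoding the glucose transporter GLUT1, was at 47.6, 41.3, 46.6, 45.5 and 55.3 CPM and then at 21.3, 21.5, 19.2, 29.2 and 29.4 CPM (-1.0, SE 0.25). Pgk1 rose by 1.43 and Aldoa by 1.13, both glycolytic enzymes, and only 46.1% of the windows of Pgk1 are unique to it. Of 26 HIF targets, 13 rose and 4 fell (median 0.37), with Adm (2.18) and Vegfa (1.43) among the rises and Car12 and Slc2a1 among the falls. Of 5 MondoA targets and arrestin-domain genes, 3 rose and 1 fell. Txnip, which limits glucose uptake, was at 2137 to 2822 CPM and 2558 to 3043 CPM and did not pass the test (0.15, adjusted p = 0.13).

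Nuclear and mitochondrial genes of respiration went in opposite directions. Of 73 tested nuclear genes of oxidative phosphorylation, 39 rose and 2 fell (median 0.27), and of 25 genes of pyruvate entry and the TCA cycle, 15 rose and 5 fell (median 0.21). Cs, the citrate synthase, rose from 138 to 152 CPM to 220 to 270 CPM (0.77, SE 0.05). Of the 13 protein-coding genes of the mitochondrial genome, 7 could be tested, and all 7 fell (median -1.70). The others were at or near 0 counts in all libraries, and most of them cannot be counted well, since at most 2.01% of the windows of mt-Co2, mt-Co3, mt-Atp6, mt-Nd3 and mt-Nd4l are found in no other gene and reads with several alignments were left out. Of mt-Nd4 and mt-Co1, 37.8% and 48.9% of the windows are unique. mt-Cytb, the cytochrome b gene, was at 2200, 2452, 1781, 2805 and 2055 CPM at pH 7.4 and at 492, 683, 562, 506 and 482 CPM at pH 6.6 (-2.05, SE 0.12, adjusted p = 1.6e-15), with a wide gap. mt-Nd1 (-1.94), mt-Nd2 (-1.91), mt-Nd5 (-1.70) and mt-Nd4 (-1.56), subunits of complex I, fell likewise. mt-Co1, of complex IV, had a smaller log2 fold change of -0.38 with overlapping groups. The share of all gene counts that fell on the mitochondrial genes that could be counted was 1.47 to 2.16% at pH 7.4 and 0.701 to 1.08% at pH 6.6.

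Most chaperones of the cytosol and of the endoplasmic reticulum rose. Of 24 cytosolic chaperones, 17 rose and 0 fell (median 0.43). Hsp90ab1, the constitutive HSP90, was at 840, 921, 854, 887 and 957 CPM at pH 7.4 and at 2212, 2856, 2742, 2726 and 2590 CPM at pH 6.6, more than the whole range of either group apart (1.56, SE 0.06, adjusted p = 2.1e-19). Hspa1a, the inducible HSP70, was nearly silent at pH 7.4, at 0 to 0.0785 CPM, and was at 4.75 to 8.04 CPM at pH 6.6. It was called higher, but the size of its fold rests on a few reads at pH 7.4. Hspa1b, at 0.167 to 0.420 CPM at pH 7.4, rose by 4.88, and this size also rests on few reads. Of the windows of Hspa1a and Hspa1b, 39.7% and 37.7% are unique, so that reads of these near-identical genes are partly lost. Their 0 h means were 4.11 and 5.42 CPM. Of 25 endoplasmic reticulum chaperones and unfolded protein response genes, 16 rose and 2 fell (median 0.33), with Hspa5, or BiP, at 207 to 329 CPM and then 401 to 754 CPM (1.25). Of 46 proteasome genes, 25 rose and 5 fell (median 0.23), with Psmd8 the highest at 0.94.

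Iron genes, redox genes and the GIMAP GTPases of lymphocyte survival were also examined. Of 11 iron genes, 7 rose and 2 fell (median 0.50), with the mitochondrial iron carrier Slc25a28 higher by 1.28 and Aco1, an iron-regulatory protein, at -0.77. Of 21 NRF2 and redox genes, 7 rose and 8 fell. Gclm (-1.18), of glutathione synthesis, and Hmox1 (-1.22) fell, and Gpx4 (0.63), which protects lipids, rose, with 65.3% of its windows unique. Of 8 GIMAP genes, 3 rose and 1 fell, from Gimap8 (-1.02) to Gimap7 (0.57).

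**Figure D4:**
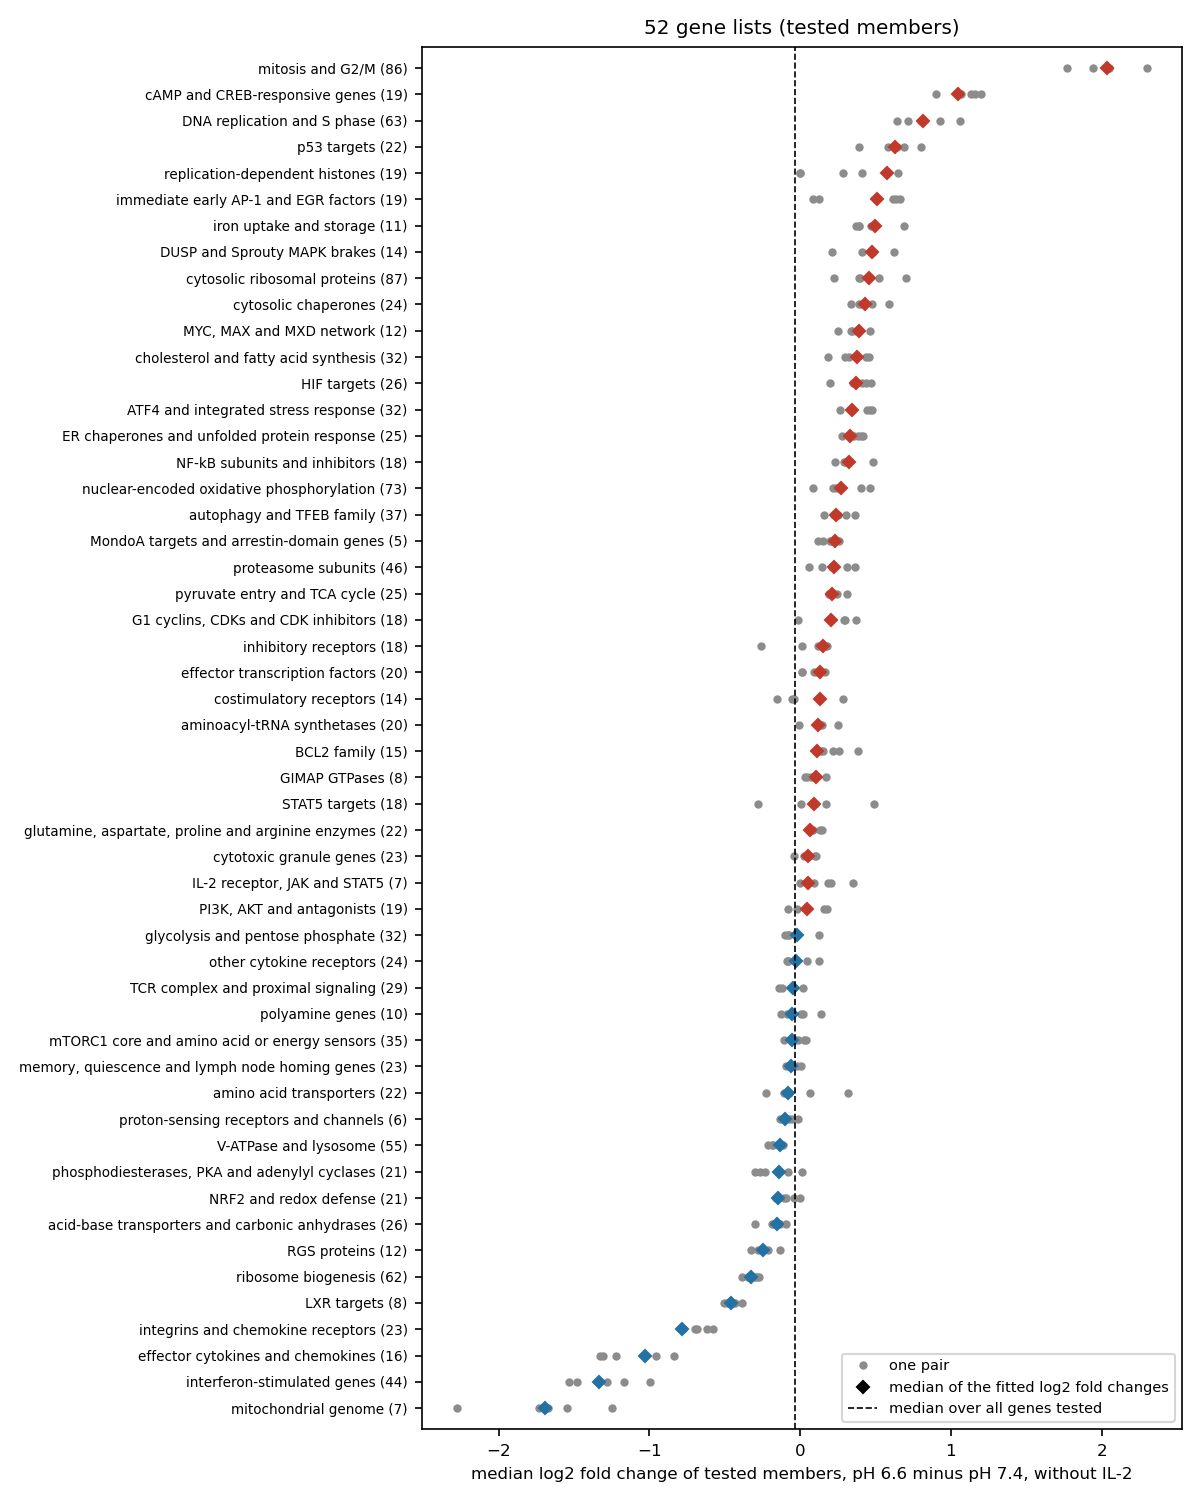
Median log2 fold change (pH 6.6 minus pH 7.4 without IL-2, horizontal axis) of the tested members of 52 gene lists, with the number tested in parentheses. Diamonds are medians of the fitted values, grey points the medians within each of the 5 replicate pairs, and the dashed line the median over all genes. Mitosis and G2/M lies highest at 2.03, and the interferon-stimulated list (-1.33) and the mitochondrial genome (-1.70) lie lowest.

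Other genes whose log2 CPM averaged 3 or more changed strongly, and most of them were outside these groups. Tspoap1 rose from 6.93 to 8.18 CPM to 46.4 to 97.4 CPM (3.21), Bend4 from 49.3 to 71.6 CPM to 391 to 649 CPM (3.14), and the serpin Serpinb6b from 45.6 to 96.7 CPM to 470 to 553 CPM (2.92). Spo11, known for its role in meiotic recombination, was at 35.1, 40.8, 39.8, 39.6 and 33.3 CPM at pH 7.4 and at 3.96, 2.12, 2.59, 2.41 and 3.05 CPM at pH 6.6 (-3.78, SE 0.16), with 0 h cells at 3.73 CPM. C030034L19Rik, a long noncoding RNA, fell (-3.44), as did the gene F830016B08Rik (-3.05). Of C030034L19Rik, 43.6% of the exon length overlaps a gene on the opposite strand.

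The same acid step was measured with IL-2 in other libraries, and the interaction contrast tested whether the acid difference without IL-2 equalled that with IL-2. It was called positive for 4526 genes (32.8%) and negative for 4735 (34.3%). In both settings 2194 genes were called higher in acid and 2470 lower, while 1367 were called higher without and lower with IL-2, and 1159 lower without and higher with IL-2. For the mitotic list, whose median was 2.03 without IL-2, the median with IL-2 was -1.62, and the interaction was positive for 85 of 86 genes. For the replication list the medians were 0.82 and -2.02, with 63 of 63 interactions positive. Kif11 rose by 3.32 without IL-2 and had a log2 fold change of -1.09 with it, an interaction of 4.41 (adjusted p = 3.1e-15). Its mean level was 23.2 CPM at pH 7.4 without IL-2 and 498 CPM at pH 7.4 with IL-2, but 233 and 236 CPM at pH 6.6 without and with it. The pH 6.6 groups thus stood close together for Kif11, and the pH 7.4 groups far apart.

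The medians of some other lists also differed between the 2 settings. The medians without and with IL-2 were 0.38 and -1.26 for cholesterol and fatty acid synthesis, 0.34 and -1.0 for ATF4 and the integrated stress response, 0.43 and -0.70 for cytosolic chaperones, and 0.23 and -1.10 for the proteasome. Ribosome biogenesis was lower in both, at -0.32 and -1.95, with an interaction called positive for 62 of 62 genes. Memory and homing genes had a median of -0.06 without and 1.37 with IL-2, and the interaction was negative for 19 of 23. Il7r had log2 fold changes of -3.27 and 1.72, an interaction of -4.99, and Tcf7 of -0.55 and 3.23. Gzma (1.74 and -0.85) and Myc (0.69 and -1.55) had opposite signs, and Gzmb fell by 3.27 on the log2 scale with IL-2.

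Among the lists whose medians lay on the same side of 0 in both settings were the cAMP and CREB-responsive genes (1.05 and 1.24), p53 targets (0.63 and 0.67), NF-kB genes (0.33 and 0.93), effector cytokines (-1.03 and -1.27), interferon-stimulated genes (-1.33 and -1.04) and the mitochondrial genome (-1.70 and -1.76). Single members still differed. The interaction was called positive for 8 and negative for 6 of 19 cAMP and CREB-responsive genes. These numbers were 8 and 16 of 44 interferon-stimulated genes, 2 and 10 of 18 NF-kB genes, and 5 and 6 of 16 effector cytokines. Over all genes the shares were 32.8% and 34.3%. Nr4a3 had log2 fold changes of 2.01 without and -0.06 with IL-2, and Ccl5 of -1.26 and 2.11. For Nr4a1 the log2 fold changes were 4.07 without and 3.63 with IL-2, and the interaction of 0.44 did not pass the test. For Plk2 they were 2.71 and 2.68. Equal values were not shown by these tests, since a missed threshold leaves the size of a difference undetermined.

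**Figure D5:**
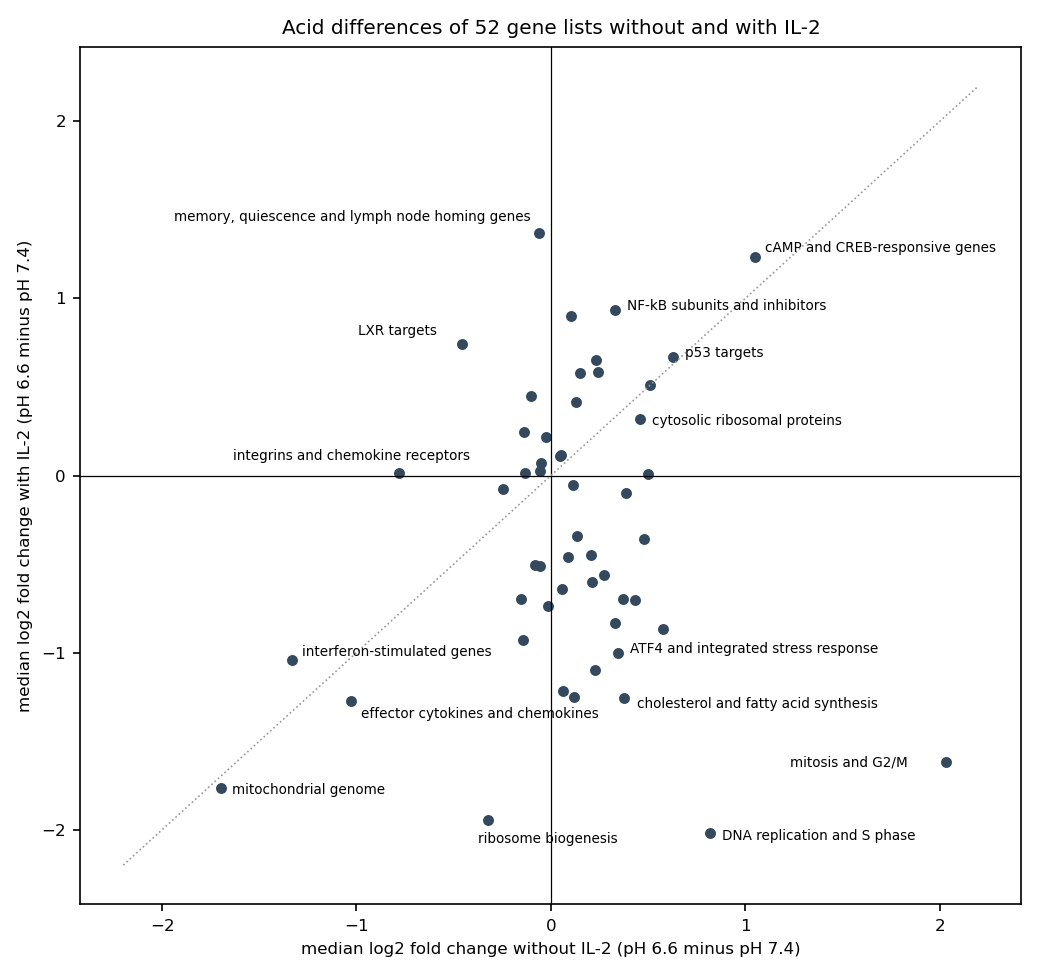
Median log2 fold change (pH 6.6 minus pH 7.4) of 52 gene lists without IL-2 (horizontal axis) and with IL-2 (vertical axis). Each point is 1 list, and the dotted line marks equal values. Mitosis and G2/M (2.03 and -1.62) and DNA replication (0.82 and -2.02) lie to the lower right, and the cAMP and interferon-stimulated lists lie near the dotted line.

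The milder step to pH 7 without IL-2 shares its pH 7.4 libraries with the comparison above, so its values are only set side by side. At pH 7, 232 genes (1.68%) were called. Of the mitotic list 58 members rose and 0 fell, with a median of 0.83 beside 2.03 at pH 6.6, and of the interferon-stimulated list 12 fell, with a median of -0.30 beside -1.33. The log2 fold change at pH 7 was 0.95 for Kif11 and 0.83 for Mki67, both past the test, and -0.71 for Il7r and -1.28 for Ifng, also past it. Nr4a1 (0.11), Fosl2 (0.33), Tnfaip3 (0.25), Gzma (0.27), Hsp90ab1 (0.13) and mt-Cytb (-0.35) did not pass it at pH 7.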

How the data were processed

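RNA was measured by stranded mRNA sequencing in 35 libraries, 7 groups of 5, of which 10 enter the comparison. The authors deposited raw read counts per gene for each library, not normalized. The submitters' processing notes name cutadapt 1.8, STAR 2.5.2b, HTSeq 0.6.1 and GRCm38, and their settings and annotation release are not given in the sources used here. Summary rows were kept out of totals (unassigned reads with no feature were 6.47 to 10.2% of reads in the 10 libraries), and depth per sample is given above. Because the authors counted only reads with 1 alignment, genes with near-identical copies lose reads.

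Counts were fitted with edgeR 4.0.16 (limma 3.58.1, R 4.3.3) by robust quasi-likelihood over all 35 libraries, with TMM factors, group and replicate number as terms, a filterByExpr minimum of 10 counts and Benjamini-Hochberg adjustment at 0.05 over 13819 of 48709 gene rows. The block was kept because libraries with the same number deviated together (the 5 correlations lay between 0.165 and 0.494, and the median over 20 pairs with different numbers was -0.108). The common biological coefficient of variation was 0.120. No 2 libraries of a group were duplicates, since chi-square over its degrees of freedom was 6.66 or more in 70 pairs. Alternatives were RLE factors, library totals, looser and stricter filters, no replicate block, only the compared libraries, each replicate left out and DESeq2 1.42.0. The fit was tested on simulated data. Uniqueness was taken as the share of 50-base windows of a gene's transcripts found in no other gene.

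Named genes were the 10 largest rises and 10 largest falls among called genes whose log2 CPM averaged 3 or more and whose 5 pairs shared a sign, the largest rise and fall of each list on the same terms, and a fixed set of genes whatever their values. Members and lists were chosen with earlier results of these data known, and other genes were named after their values were seen. Some genes, Car12 among them, belong to several lists, so the results of different lists are not separate observations. Promoters came from RefSeq on GRCm38.p6. A few genes, members of the fixed set among them, are not reported here.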

Additional observations from a re-analysis of the deposited data

Results flagged for a closer look

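Of 238 checks of a named gene in 1 group of 5, 11 had a highest or lowest library farther from the rest than Dixon's 95% criterion allows (critical value 0.71), where chance gives about 1 in 20. Replicate 1 at pH 6.6 was high for Il7r (18.55 CPM), Hvcn1 (33.83 CPM) and Cxcr3 (22.17 CPM) and low for Ulk1 (121.3 CPM), and stood apart for Gclm at 33.11 CPM. Replicate 1 at pH 7.4 stood apart for Nt5e (269.7 CPM) and Gclm (86.07 CPM). Replicate 4 stood apart at pH 6.6 for Pik3r1 (194.5 CPM) and Atp5d (318.2 CPM) and at pH 7.4 for Ndufc2 (37.76 CPM), and replicate 5 at pH 7.4 for Atp5d (169.4 CPM).

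The acid difference without IL-2 differed from that with IL-2 for 89 of 119 named genes by the interaction term of the edgeR quasi-likelihood fit at an adjusted p below 0.05. Over all 13819 genes tested it was called for 9261, so most genes differed in this way. Many named genes were also chosen for a large change without IL-2, which is 1 term of this contrast. The values are the log2 fold change without IL-2 minus that with IL-2. Positive differences of at least 3 were those of Bub1 (4.88), Clspn (4.79), Kif11 (4.41), Spag5 (4.24), Ccnb1 (4.05), Anln (3.80), Brca1 (3.79), Mcm5 (3.65), Mki67 (3.56) and Srm (3.07). Positive differences from 2 to 3 were those of Gzmb (2.81), Gzma (2.59), Tnfrsf9 (2.48), Hspa5 (2.42), Bcl2l1 (2.29), Hsp90ab1 (2.28), Odc1 (2.28), Cenpa (2.26) and Myc (2.24). Those from 1 to 2 were Rars (1.86), Pgk1 (1.75), Slc3a2 (1.59), Gzme (1.58), Socs2 (1.49), Cs (1.41), Slc2a1 (1.37), Tspoap1 (1.35), Osm (1.35), Rps2 (1.33), Gfpt1 (1.3), Prf1 (1.3), Il2ra (1.26), Amd1 (1.23), Wars (1.19), Rpl7l1 (1.16), Npm1 (1.14), Dusp16 (1.05) and Ndufc2 (1.03). Those below 1 were Fosl2 (0.95), Atp6v0e (0.95), Wdr12 (0.93), Serpinb6b (0.93), Psmd8 (0.93), Cdkn1a (0.84), Atp5d (0.84), Psmg2 (0.79), Bhlhe40 (0.69), Gpr65 (0.64), Psph (0.49) and Idh2 (0.32).

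Negative differences of at least 2 in size were those of Il7r (-4.99), Slc26a11 (-4.17), C030034L19Rik (-4.11), Abca1 (-3.99), Spo11 (-3.93), Atp6v1g2 (-3.15), Arrdc4 (-2.51), Cdkn1b (-2.48), F830016B08Rik (-2.41), Klf2 (-2.39), Txnip (-2.24), Slamf6 (-2.16), Tgtp1 (-2.08) and Hist2h2be (-2.03). Those from 1 to 2 in size were Bcl2l11 (-1.81), Acss2 (-1.80), Pde4b (-1.78), Tnfaip3 (-1.74), Csf1 (-1.57), Gpr132 (-1.44), Slc36a1 (-1.43), Cxcr3 (-1.35), Nt5e (-1.29), Gm4951 (-1.28), Gbp10 (-1.27), Gimap8 (-1.23), Bend4 (-1.19), Iigp1 (-1.18) and Ikbkb (-1.17). Those below 1 in size were Ulk1 (-0.90), Cd8b1 (-0.81), Inpp4b (-0.78), Hvcn1 (-0.75), Ifngr2 (-0.56), Rgs1 (-0.56), Ikzf3 (-0.50), Rgs16 (-0.46), Mga (-0.46) and Cd160 (-0.40).

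For 14 of 52 gene lists the median log2 fold change had one sign in all 5 pairs without IL-2 and the opposite sign in all 5 pairs with it. The median differences were those of DNA replication and S phase (2.79), mitosis and G2/M (3.83), proton-sensing receptors and channels (-0.94), DUSP and Sprouty MAPK brakes (0.88), effector transcription factors (0.43), ATF4 and integrated stress response (1.74), glutamine, aspartate, proline and arginine enzymes (1.33), cholesterol and fatty acid synthesis (1.45), LXR targets (-1.49), pyruvate entry and TCA cycle (0.83), nuclear-encoded oxidative phosphorylation (0.85), cytosolic chaperones (1.38), ER chaperones and unfolded protein response (1.27) and proteasome subunits (1.3). These differences between list medians were not tested.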

How the results depend on the processing

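When a change of 1 or more on the log2 scale was also required, 2829 genes were called, 963 higher and 1866 lower. Without the replicate block, so that the pairing by number was not used, 8601 genes were called, 4057 higher and 4544 lower. The count ran from 8310 without replicate 2 to 8974 without replicate 5, and DESeq2 called 9320. With library totals in place of TMM factors the median of all genes moved from -0.03 to -0.19, and 34.69% of calls were higher in place of 47.17%. Those totals turned the medians of the BCL2 family (-0.039), effector transcription factors (-0.020), glutamine, aspartate, proline and arginine enzymes (-0.088) and GIMAP GTPases (-0.049) negative.

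Movement of a list median was judged after the median of all genes was subtracted. Under the stricter filter, at least 10 counts in each of the 10 libraries, the medians were 0.449 for p53 targets, -0.563 for proton sensors, -0.343 for acid-base transporters, -1.289 for effector cytokines, -0.008 for effector transcription factors, -0.592 for integrins and chemokine receptors, 0.157 for amino acid transporters and -0.063 for histones. With only the 10 compared libraries and the replicate block they were -0.315 for acid-base transporters, -1.954 for effector cytokines and -0.587 for histones. In both settings fewer genes were tested.

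Leaving out 1 replicate gave medians of -0.141 to -0.022 for proton sensors, -0.122 to -0.036 for T cell receptor genes, -1.281 to -1.0 for effector cytokines, -0.108 to -0.020 for memory genes and 0.023 to 0.168 for effector transcription factors. It gave -0.829 to -0.683 for integrins and chemokine receptors, -0.148 to 0.161 for amino acid transporters, 0.020 to 0.087 for glutamine and related enzymes, 0.170 to 0.276 for MondoA targets, 0.173 to 0.242 for the TCA cycle and -0.189 to -0.046 for NRF2 genes. The cause was not tested.

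Over all 122 genes of the naming rule, those not reported here included, and 12 alternatives, 1434 values kept direction and side of the threshold, 28 (of 8 genes) lost the call, 2 (both Txnip) gained it and 0 reversed. Over 52 lists, 22 medians moved by more than the spread between pairs without a change of sign that all 5 pairs had shared, 5 lost such a shared sign, and 597 moved by less. In all, 25 medians took the opposite sign, 11 of them under library totals, and those of amino acid transporters and histones did so among the larger moves. Genes that reached about 10 counts in too few libraries of the series were not tested, so depth limits what can be said of them. Some genes with few reads in a compared group, such as Hspa1a at pH 7.4, were tested.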
